A study of Mus musculus with 18 samples.

Results

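The comparison described here set bone against bone marrow within knockout mice: 3 libraries of GFP-negative cells sorted from bone and 3 of GFP-negative cells sorted from marrow, 6 of the 18 libraries of the study. The members were chosen by title, genotype and tissue alone. The study sorted 3 subsets of osterix-derived cells at postnatal day 21 from wild-type controls and from mice with conditional loss of PTH1R: GFP-negative marrow cells, GFP-positive bone cells and GFP-negative bone cells, with 3 libraries for each subset and genotype. The title places the knockout in osteoprogenitors. All 6 libraries compared here carried the knockout and were GFP-negative, with Tm+ in their names. The labels neither spell out Tm nor name the Cre line or the exons removed, and they do not say whether libraries came from separate or pooled animals. The same contrast in the 3 control bone and 3 control marrow libraries served as reference.

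PTH1R is a receptor on the cell surface that couples to G proteins and raises cyclic AMP when parathyroid hormone or the related peptide PTHrP binds to it. Osterix, encoded by Sp7, is a transcription factor needed for osteoblasts to form, and cells descended from osterix-expressing progenitors include the osteoblasts on bone and much of the stroma inside marrow. Osteoblasts lay down collagen and mineral. Marrow stromal cells that express the leptin receptor and the chemokine CXCL12 sit around the sinusoids, supply blood stem cells with growth factors and can turn into fat cells.

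Pth1r itself (ENSMUSG00000032492.14, mm10 chr9:110722085-110747145, minus strand) was read in every library. After TMM scaling the knockout libraries held 1398, 1137 and 1031 CPM in bone and 372, 337 and 318 CPM in marrow, where CPM is the usual per-library rate, here relative to the TMM-scaled library total. The control libraries held 1674, 1669 and 1911 CPM in bone and 541, 581 and 553 CPM in marrow. Every knockout library lay below every control library of its tissue, and the knockout means were 67.9% of the control mean in bone and 61.4% in marrow. Counts over all exons cannot separate a transcript that lacks the removed exons from an intact one. Within the knockout, Pth1r was higher in bone than in marrow by 1.78 ± 0.08 on the log2 scale (estimate ± SE, n = 3 against 3, edgeR quasi-likelihood test, adjusted p = 9.01e-10). In controls the same change was 1.65, and the difference between genotypes, 0.14 ± 0.12, did not pass the test (adjusted p = 0.536).

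Bone and marrow cells of the knockout differed across a large part of the transcriptome. Of 15516 genes tested, 7259 passed an adjusted p of 0.05 (46.8%), 3560 higher in bone (22.9%) and 3699 lower in bone (23.8%). At least a 2-fold difference was estimated for 3723 of them (24.0%), with 2071 higher (13.3%) and 1652 lower (10.6%). The 3 bone libraries all lay above the 3 marrow libraries for 25.5% of genes and all below for 29.1%. The median over all genes was -0.06 on the log2 scale. These shares are the background for every list below. P-values measure the spread between these libraries, which may be technical. An estimate passing the test is called higher or lower in bone, and changes are log2 of bone minus marrow throughout. In bulk samples, fewer cells of a type and less RNA per cell cannot be told apart.

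The 6 libraries held 16443595 to 24686089 counts. In bone, Col1a1 and Col1a2 together took 41.3% ± 4.52 of all counts (SD, n = 3), against 11.1% ± 1.89 in marrow. The 10 most abundant genes took 51.1% ± 4.43 in bone and 21.6% ± 1.76 in marrow, so all other genes together took a smaller share of a bone library. With library totals alone in place of TMM the median of all genes was -0.72, the called genes numbered 10583, and 16.6% of them were higher in bone against 49.0% with TMM. The medians of 11 lists changed sign with this choice, and those described are given below with both values. Mitochondrial transcripts were also unequal: all 11 tested were higher in bone (median 1.48), and their sum was 3187 to 3292 CPM in bone and 971 to 1199 CPM in marrow. Whether this difference in RNA composition has a part in the results below was not tested. Y-linked genes were read in replicates 1 and 2 of each tissue and Xist in replicate 3, so the numbers match the same sex across tissues.

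Bglap and Ibsp, matrix genes of osteoblasts, were high in bone, and Cxcl12 and Adipoq, genes of marrow stroma and of fat cells, were high in marrow. They stand for the groups described below, so the 250 bases before their annotated starts are shown, 5′ to 3′ on the gene's strand, from RefSeq on GRCm38.p6. Capitals mark TGTGGT or its reverse complement ACCACA, the core letters that RUNX factors recognise, and CCAAT or its reverse complement ATTGG, a common promoter element. These motifs do not overlap each other here. The windows are chr3:88384467-88384716 (minus strand) for Bglap, chr5:104299037-104299286 (plus strand) for Ibsp, chr6:117168285-117168534 (plus strand) for Cxcl12 and chr16:23146286-23146535 (plus strand) for Adipoq.
Bglap: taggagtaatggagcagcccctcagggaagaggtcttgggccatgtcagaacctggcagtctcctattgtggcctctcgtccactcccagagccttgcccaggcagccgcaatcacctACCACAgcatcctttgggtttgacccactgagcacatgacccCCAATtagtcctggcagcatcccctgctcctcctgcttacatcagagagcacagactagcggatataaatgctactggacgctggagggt
Ibsp: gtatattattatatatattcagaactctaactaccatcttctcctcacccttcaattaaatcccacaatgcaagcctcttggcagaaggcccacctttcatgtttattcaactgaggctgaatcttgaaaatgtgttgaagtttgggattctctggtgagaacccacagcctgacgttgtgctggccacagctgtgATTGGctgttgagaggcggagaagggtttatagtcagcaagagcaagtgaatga
Cxcl12: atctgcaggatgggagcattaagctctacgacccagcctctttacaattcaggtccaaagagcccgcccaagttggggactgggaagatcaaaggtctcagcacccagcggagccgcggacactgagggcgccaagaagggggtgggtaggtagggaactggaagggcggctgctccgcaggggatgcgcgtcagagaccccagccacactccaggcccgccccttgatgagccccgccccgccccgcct
Adipoq: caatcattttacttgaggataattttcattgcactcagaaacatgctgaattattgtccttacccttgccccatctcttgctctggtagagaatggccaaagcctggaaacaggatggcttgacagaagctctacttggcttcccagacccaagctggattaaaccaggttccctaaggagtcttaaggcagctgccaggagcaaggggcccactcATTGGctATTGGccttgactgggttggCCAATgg
Of the 4 windows, that of Bglap alone held the RUNX letters, and that of Cxcl12 held neither motif. Over the RefSeq table, 14.0% of 32851 windows held them, and over the genes tested here 10.8% of 14372. Symbols matched for 1448 genes higher in bone by at least 2-fold and for 1184 lower, and the letters were in 11.9% of 1956 and 11.1% of 1574 of their windows. CCAAT was in 33.8% of all windows, 34.8% of those of the genes tested, 30.9% of those of the higher genes and 33.7% of those of the lower genes. Matches describe letters in these windows and no more.

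Genes that define osteoblasts and their matrix were higher in bone. Of 24 osteoblast genes tested, 22 rose, none was lower by the test, and the median was 2.21 against -0.06 for all genes. Bglap, which encodes osteocalcin, the vitamin K-dependent protein of bone mineral, read 5589, 3840 and 7033 CPM in bone and 580, 409 and 399.7 CPM in marrow. The groups were far from overlapping, and the estimate was 3.54 ± 0.18 (edgeR, adjusted p = 2e-09). Bglap2 changed by 3.49 and Bglap3 by 3.18, but the 3 copies are nearly identical and reads may have been split among them. The fibrillar collagen gene Col1a1 read 359000, 287900 and 454300 CPM in bone and 68400, 59490 and 49250 CPM in marrow, an estimate of 2.62 ± 0.23 (edgeR, adjusted p = 4.81e-07). Its partner Col1a2 differed by 2.46. Bone and marrow libraries overlapped for neither collagen.

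Other bone matrix genes followed. Sparc, a collagen-binding glycoprotein, read 50610, 40390 and 53160 CPM in bone and 10980, 10810 and 8305 CPM in marrow (2.26 ± 0.15, edgeR adjusted p = 2.02e-08). Ibsp, the bone sialoprotein, was nearly level across the bone libraries and uneven in marrow: 4622, 4592 and 4623 CPM in bone and 1752, 2464 and 1114 CPM in marrow (1.45 ± 0.23, edgeR adjusted p = 0.000172). Spp1, osteopontin, differed by 2.05 ± 0.19. The marrow libraries were therefore not empty of bone matrix transcripts. Their summed osteoblast genes came to 492100 to 711300 CPM in bone and 85110 to 120000 CPM in marrow, most of it type I collagen.

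Transcription factors of the lineage were also higher in bone. Sp7 read 276, 219 and 299 CPM in bone and 132, 88.9 and 112 CPM in marrow, an estimate of 1.26 ± 0.12 (edgeR, adjusted p = 6.28e-07). Runx2, the factor at the head of osteoblast differentiation, read 84.8, 90.9 and 105 CPM in bone and 45.8, 45.8 and 46.9 CPM in marrow (1.02 ± 0.08, edgeR adjusted p = 2.25e-07). Both were detected in every marrow library, so the factor that names the lineage was transcribed in both tissues. Sp7 and Runx2 were singled out after their values were seen. Dlx3, a homeobox factor of late osteoblasts, differed by 2.10 ± 0.14. Msx2 and Phospho1 were the members that did not pass, with 1.11 (adjusted p = 0.0658) and 1.199 (adjusted p = 0.0597).

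Mineralisation genes were also mostly higher in bone, 8 of 13 with a median of 1.44. Some of them, among them Alpl and Smpd3, also belong to the osteoblast list. Alpl, the phosphatase that frees phosphate for mineral, read 2867, 2703 and 2481 CPM in bone and 589, 478 and 482 CPM in marrow (2.38 ± 0.09, edgeR adjusted p = 1.29e-10). The groups were far apart relative to their spread. Smpd3, a sphingomyelinase of matrix vesicles and cartilage, rose by 2.42, the phosphate carrier Slc20a2 by 1.97, the citrate carrier Slc13a5 by 2.604, Enpp6 by 2.095 and the pyrophosphate exporter Ank by 1.44. The member called lower, Ahsg, rests on under 1 CPM in every library, and its call was lost without any 1 of the bone libraries and without marrow replicate 1 or 2. It had 7 higher and 3 lower with a median of 0.78 when scaled by library totals alone.

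Of 13 osteocyte and late osteoblast genes tested, 12 were higher in bone (median 2.397, or 2.16 with genes at 0 counts set at their bound). The member that did not pass, Tnc, made up the largest part of the list's summed CPM. It encodes tenascin-C and read 2482, 2950 and 2483 CPM in bone and 3611, 2940 and 3584 CPM in marrow (-0.37 ± 0.15, adjusted p = 0.064). With it the sum of the list was 4307 to 4957 CPM in bone and 3445 to 3990 CPM in marrow, and in controls 1909 to 2281 CPM in bone and 2406 to 2888 CPM in marrow, where bone lay below. Dmp1, a matrix protein of young osteocytes, read 1275, 1452 and 1303 CPM in bone and 218, 322 and 138 CPM in marrow (2.66 ± 0.23, edgeR adjusted p = 6.75e-07). Fbln7 read 60.8, 55.2 and 75.9 CPM in bone and 4.48, 4.71 and 5.73 CPM in marrow (3.68 ± 0.09), and the CXCL12-scavenging receptor Ackr3 61.4, 63.2 and 60.3 CPM in bone and 3.70, 3.88 and 4.13 CPM in marrow (3.98 ± 0.22). Pdpn, the podoplanin of embedding osteocytes, rose by 4.32, Ptprz1 by 3.21 and Cd44 by 2.16. Sost, which encodes the osteocyte product sclerostin, was barely detected: 0.310, 0.0515 and 0.129 CPM in bone and 0 in all 3 marrow libraries, at least 1.16-fold higher against a floor of 3 counts per library. Its call was lost without bone replicate 1 (3.94, adjusted p = 0.0625). Floors and counting intervals here cover counting error only.

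**Figure D1:**
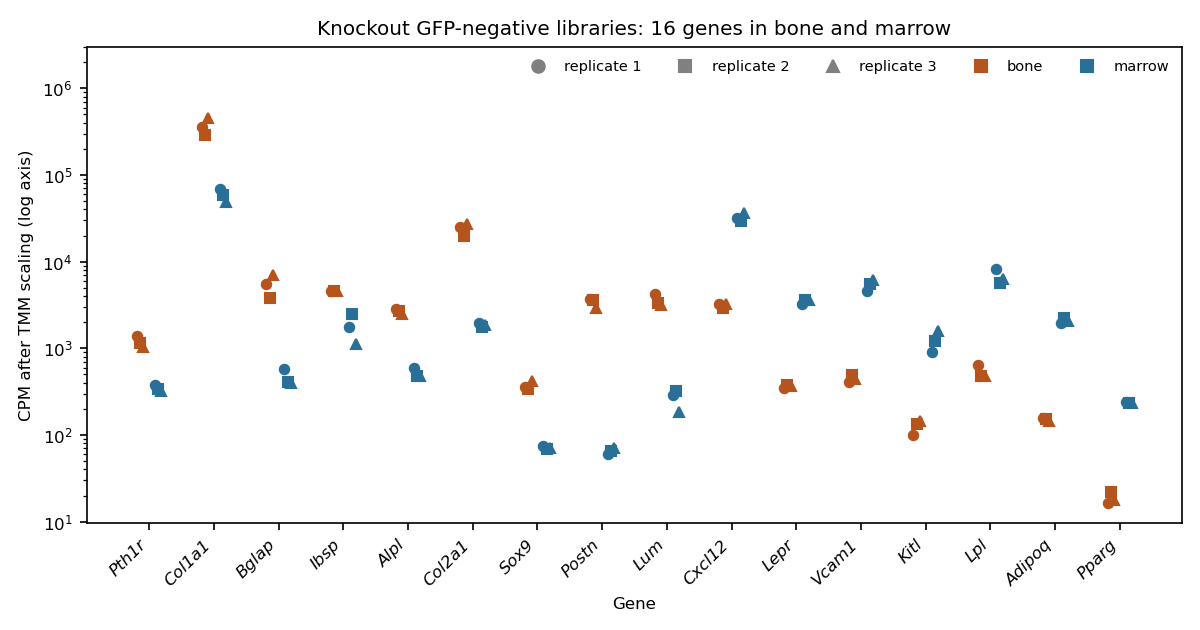
CPM after TMM scaling (log axis) of 16 genes in the 3 bone and 3 marrow libraries of the knockout, with 1 symbol per replicate. For each gene the bone and marrow libraries do not overlap, from Bglap at 3840 or more in bone and 580 or less in marrow to Lepr at 373 or less in bone and 3210 or more in marrow.

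Cartilage genes stood out in the bone libraries. All 24 tested were higher in bone, with a median of 3.56 and a range from 1.03 to 4.42. Their sum was 35280 to 45710 CPM in bone and 3588 to 4394 CPM in marrow. Col2a1, the main collagen of cartilage, read 25250, 19750 and 26860 CPM in bone and 1979, 1765 and 1867 CPM in marrow (3.67 ± 0.16, edgeR adjusted p = 3.24e-10). With DESeq2 the estimate was 3.71 and did not pass (adjusted p = 0.0585). Sox9, the master regulator of chondrocytes, read 362, 335 and 417 CPM in bone and 73.9, 69.6 and 70.6 CPM in marrow (2.38 ± 0.09, edgeR adjusted p = 1.27e-10). It was named after its value was seen.

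The other collagens and proteins of cartilage moved by similar amounts. Col9a1, Col9a2 and Col9a3, the chains of the collagen that coats cartilage fibrils, rose by 3.70, 3.57 and 3.56. Chad, a cell-binding leucine-rich protein, read 1268, 1088 and 1356 CPM in bone and 74.9, 62.4 and 75.8 CPM in marrow (4.12 ± 0.10). Comp rose by 3.86 and Epyc by 3.37. The GFP-negative bone libraries therefore carried transcripts of cartilage beside those of bone, and the labels name these samples bone cells only. How many cells this reflects was not tested.

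Genes of fibroblasts, periosteum and tendon had the highest median of the skeletal lists. Of 25 tested, 23 were higher in bone and 2 lower, with a median of 3.97, and their sum was 32230 to 40280 CPM in bone and 4089 to 4415 CPM in marrow. Postn, periostin of the periosteum and of tendon, read 3701, 3617 and 2939 CPM in bone and 60.7, 66.03 and 70.5 CPM in marrow (5.71 ± 0.23, edgeR adjusted p = 1.97e-10). Lum, lumican, which orders collagen fibrils, read 4269, 3296 and 3145 CPM in bone and 290.2, 318 and 183 CPM in marrow (3.78 ± 0.20). Col3a1 rose by 3.94 ± 0.24, Col12a1 by 2.94 ± 0.13 and Timp1, an inhibitor of metalloproteinases, by 2.71 ± 0.12. Every bone library exceeded every marrow library for these genes.

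The members lower in bone were Fbn1, the fibrillin of elastic microfibrils, and the tendon factor Mkx. Fbn1 read 139, 169 and 126 CPM in bone and 828, 856 and 1061 CPM in marrow (-2.67 ± 0.16), and Mkx differed by -0.61 ± 0.18 (adjusted p = 0.0111). Mkx lost its call without bone replicate 2, bone replicate 3 or marrow replicate 2, left out singly (-0.44, -0.52 and -0.50). Cd34, a sialomucin of fibroblasts and of vessels, read 15.9, 6.44 and 4.59 CPM in bone and had 1 count over all marrow libraries. The ratio of its counts between the tissues was 734, with a 95% counting interval from 131 to 29040.

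Enzymes that fold, cross-link and trim collagen rose with it. Of 22 tested, 18 were higher in bone and 3 lower (median 1.06). Serpinh1, the collagen chaperone of the endoplasmic reticulum, read 5689, 4377 and 4424 CPM in bone and 2543, 2094 and 2192 CPM in marrow (1.08 ± 0.09, edgeR adjusted p = 1.45e-07). The prolyl hydroxylase subunits P4ha1, P4ha2 and P4ha3 rose by 1.44, 1.62 and 3.46, and the lysyl hydroxylase Plod2 by 2.16. Fkbp10, a collagen-binding peptidyl-prolyl isomerase, rose by 1.17 and Pcolce2, which speeds removal of the procollagen tail, by 3.503. Scaled by library totals alone, the list had 12 higher and 4 lower with a median of 0.39.

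Proteases and their inhibitors split, 10 of 21 higher and 8 lower (median 0.33, or -0.34 with library totals alone). The gelatinase gene Mmp2 read 2765, 2499 and 2544 CPM in bone and 309, 345 and 239.7 CPM in marrow (3.14 ± 0.13, edgeR adjusted p = 3.66e-10). Among the inhibitors, Timp2 rose by 1.38 while Timp4 was lower in bone (-3.77). Mmp16 rose by 2.13 and Mmp11 was lower (-1.603). The list is thus not 1 block. Mmp3 had 0 counts in all 3 marrow libraries and 1.60, 0.825 and 3.10 CPM in bone, at least 13.1-fold higher against the floor.

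Basement membrane genes separated by molecule, 10 of 22 higher and 9 lower (median 0.01, or -0.65 with library totals alone). The chains of type IV collagen were marrow-high: Col4a1 read 232, 284 and 252 CPM in bone and 1917, 1635 and 1984 CPM in marrow (-2.85 ± 0.17) and Col4a2 127, 159 and 150.1 CPM in bone and 1024, 870.1 and 1148 CPM in marrow (-2.804 ± 0.15). Nid1, which links laminin to collagen IV, differed by -2.33 and the laminin chain Lamc1 by -2.02. The short-chain collagen Col8a2 and the fibril-associated Col16a1 ran the other way, by 4.995 and 2.37. It had 7 higher and 11 lower with a median of -0.65 when scaled by library totals alone.

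In marrow, the genes of the reticular stroma were higher without exception among those tested. All 22 were lower in bone, with a median of -2.89 and a range from -3.76 to -0.95, and their sum was 8066 to 8564 CPM in bone and 64520 to 76160 CPM in marrow. Cxcl12, the chemokine that keeps blood stem cells in marrow, read 3206, 2956 and 3240 CPM in bone and 31580, 29680 and 36740 CPM in marrow (-3.38 ± 0.19, edgeR adjusted p = 5.19e-09). Lepr, the leptin receptor, read 351, 373 and 368 CPM in bone and 3210, 3642 and 3588 CPM in marrow (-3.26 ± 0.14, edgeR adjusted p = 4.55e-10). Both genes were nonetheless detected in every bone library.

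The transcription factor Ebf3, which keeps marrow reticular cells from turning to bone, read 12.8, 12.8 and 9.76 CPM in bone and 129, 119 and 91.99 CPM in marrow (-3.26 ± 0.12). Vcam1, an adhesion molecule for leukocytes, read 410, 496 and 444 CPM in bone and 4591, 5576 and 6219 CPM in marrow (-3.61 ± 0.16). Esm1 differed by -3.76 and the vessel-stabilising ligand Angpt1 by -3.38. Foxc1, a forkhead factor of the same cells, differed by -2.36 ± 0.11. It was not among the members with the smallest p and was named after its value was seen.

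Signals to osteoclasts and blood cells followed the stroma. Of 17 tested, 10 were lower in bone and 6 higher (median -1.405). Kitl, stem cell factor, read 101, 133 and 146 CPM in bone and 897, 1203 and 1578 CPM in marrow (-3.26 ± 0.15, edgeR adjusted p = 6.7e-10), and Csf1, the macrophage and osteoclast growth factor, 192, 221 and 190 CPM in bone and 1200, 1071 and 1204 CPM in marrow (-2.53 ± 0.10). Il7, which lymphocyte precursors need, and Il34, another ligand of the CSF1 receptor, were lower in bone (-3.43 and -3.49). Kitl, Il7 and Csf1 also belong to the marrow stroma list. Pleiotrophin, encoded by Ptn, was bone-high at 333, 231 and 169 CPM in bone and 16.8, 18.5 and 19.2 CPM in marrow (3.72 ± 0.18).

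The pair that sets osteoclast formation moved in opposite directions. Tnfsf11, which encodes RANKL, read 26.2, 39.8 and 46.9 CPM in bone and 72.3, 122 and 102 CPM in marrow (-1.405 ± 0.16, edgeR adjusted p = 7.01e-06). Its decoy receptor osteoprotegerin, encoded by Tnfrsf11b, read 43.05, 57.98 and 62.8 CPM in bone and 12.95, 11.9 and 17.6 CPM in marrow (1.96 ± 0.18, edgeR adjusted p = 9.03e-07). Neither gene had overlapping groups. Both were named after their values were seen.

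Fat-cell genes were a second block of the marrow. Of 25 tested, 23 were lower in bone and 2 higher, with a median of -3.38, and their sum was 1838 to 2029 CPM in bone and 14670 to 16990 CPM in marrow. Lpl, the lipase that draws fatty acids from blood lipoproteins, read 634, 474 and 482 CPM in bone and 8271, 5650 and 6236 CPM in marrow (-3.66 ± 0.11, edgeR adjusted p = 2.06e-11). Adipoq, the hormone adiponectin, read 158, 152 and 144 CPM in bone and 1946, 2220 and 2086 CPM in marrow (-3.79 ± 0.19). Pparg, the master regulator of fat cells, read 16.3, 22.2 and 17.8 CPM in bone and 239.9, 236 and 236 CPM in marrow (-3.66 ± 0.20). Bone and marrow libraries overlapped for none of these genes.

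Apoe differed by -3.38. The lipid droplet coat Plin2 differed by -1.91 and the acyl-CoA synthetase Acsl1 by -3.80. The members higher in bone were Fasn, which makes fatty acids, at 1.28 ± 0.13, and Cidea at 4.62 ± 0.60, with Cidea reading 1.65, 1.29 and 1.10 CPM in bone and 0.0644, 0.0374 and 0.0470 CPM in marrow. Complement genes showed the same tendency, 9 of 12 lower in bone (median -1.82). The lowest of them, Cfd, also belongs to the fat-cell list. C4b read 53.2, 105 and 103 CPM in bone and 648, 1569 and 1025 CPM in marrow (-3.61 ± 0.24) and the inhibitor Serping1 differed by -2.198. C1qtnf1, a secreted protein with a C1q-like domain that the list counts, was higher in bone (1.76).

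Genes of PTH and cyclic AMP signalling did not move as 1 group in the knockout. Of 27 tested, 12 were higher in bone and 9 lower, with a median of 0.20 (7 higher and 10 lower with a median of -0.47 with library totals alone). Pthlh, the gene of the ligand PTHrP, read 6.51, 12.8 and 4.59 CPM in bone and 0.225, 0.261 and 0.188 CPM in marrow (5.06 ± 0.65, edgeR adjusted p = 1.9e-05), and it was at 4.38 without bone replicate 2. Gnas, which encodes the G protein subunit that PTH1R uses, rose by 0.82 ± 0.08, a call lost with library totals alone (0.15, adjusted p = 0.165). Of the early response genes, Nr4a2 was bone-high at 69.5, 69.9 and 66.6 CPM in bone and 10.1, 7.21 and 6.39 CPM in marrow (3.12 ± 0.22) and Fosl1 at 3.58. Dusp1, a phosphatase of MAP kinases, was marrow-high at 1326, 1268 and 915 CPM in bone and 3034, 4162 and 2524 CPM in marrow (-1.47 ± 0.15). Nr4a1 and Nr4a3 did not pass the test (-0.12 and -0.27).

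WNT signalling showed more antagonists in bone. Of 14 antagonists tested, 10 were higher and 1 was lower (median 1.24; 8 higher and 3 lower with a median of 0.58 with library totals alone). Wif1, a secreted WNT binder, read 430.1, 548 and 624 CPM in bone and 135, 162 and 167 CPM in marrow (1.78 ± 0.11, edgeR adjusted p = 1.72e-08). Frzb rose by 2.98, Dkk3 by 1.28, Notum by 1.88 and Dkk1 by 1.84. The lower member was Sfrp1, at 29.5, 36.9 and 35.7 CPM in bone and 184, 186 and 206 CPM in marrow (-2.495 ± 0.15).

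Among 24 WNT ligands, receptors and targets, 14 were higher in bone and 5 lower. The R-spondins, which strengthen WNT signals, were marrow-high: Rspo3 read 14.99, 14.5 and 19.8 CPM in bone and 129.8, 113 and 134 CPM in marrow (-2.94 ± 0.17) and Rspo2 11.1, 11.2 and 9.95 CPM in bone and 86.1, 93.9 and 118 CPM in marrow (-3.201 ± 0.21). Wnt16, a ligand of cortical bone, read 13.1, 7.42 and 7.37 CPM in bone and 0.0966, 0.112 and 0.141 CPM in marrow (6.28 ± 0.44). The effector Tcf7 rose by 1.58 and Wnt5b by 1.09, while Wnt4 was lower (-1.14). Scaled by library totals alone, the list had 10 higher and 8 lower with a median of 0.43.

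BMP genes leaned to marrow, 13 of 23 lower in bone and 9 higher (median -0.88). The ligands divided: Bmp4 (-3.58) and Bmp6 (-2.76) were marrow-high and Bmp8a (2.98) bone-high. The antagonists divided too: Chrdl1 and Grem1 were marrow-high and Nbl1 was bone-high (3.49 ± 0.14). Chrdl1 read 188, 191 and 181 CPM in bone and 1890, 2158 and 2241 CPM in marrow (-3.49 ± 0.13, edgeR adjusted p = 1.27e-10) and Grem1 14.7, 15.5 and 12.3 CPM in bone and 98.97, 143 and 88.8 CPM in marrow (-2.93 ± 0.16). Id4, a target of the pathway, was lower in bone (-2.63).

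For FGF and IGF genes, 7 of 19 were higher in bone and 9 lower, and 4 were higher without marrow replicate 2. It had 3 higher and 10 lower with a median of -1.11 when scaled by library totals alone. The IGF-binding proteins were split. Igfbp4, Igfbp5 and Igfbp7 were marrow-high at -2.898, -2.19 and -1.996, and Pappa, the protease that cuts Igfbp4, at -2.78. Igfbp6 was bone-high at 6.54 ± 0.55, with a mean of 35.8 CPM in bone and 0.370 CPM in marrow. Fgf7 was marrow-high (-2.32) and the receptor Fgfr1 bone-high (1.36). Notch and hedgehog genes leaned to marrow, 10 of 18 lower and 2 higher. Notch3 read 52.4, 56.7 and 75.98 CPM in bone and 299, 173 and 389 CPM in marrow (-2.15 ± 0.18) and its target Heyl differed by -2.27. The members higher in bone were Ihh, the hedgehog ligand of growth plate cartilage, at 64.96, 43.96 and 42.1 CPM in bone and 3.96, 3.32 and 4.93 CPM in marrow (3.62 ± 0.19), and the target Gli1 at 2.25 ± 0.32.

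Among metabolic genes, those of cholesterol synthesis and uptake were mostly bone-high, with 14 of 20 higher in bone and 3 lower (median 1.31; 12 higher and 5 lower with a median of 0.65 with library totals alone). Sqle, squalene epoxidase, read 43.98, 45.5 and 48.2 CPM in bone and 9.95, 9.94 and 11.1 CPM in marrow (2.15 ± 0.10, edgeR adjusted p = 1.24e-09), and Fdft1, squalene synthase, 32.9, 32.6 and 36.2 CPM in bone and 8.70, 6.87 and 6.48 CPM in marrow (2.198 ± 0.10). Msmo1 rose by 1.98, Cyp51 by 2.03, Insig1 by 1.62 and Hmgcs1 by 1.14. The steroid-sensing receptor Nr1h3 was lower in bone (-2.69) and was named after its value was seen.

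Of 21 glycolysis genes, 10 were higher in bone and 5 lower (median 0.22; 6 higher and 12 lower with a median of -0.45 with library totals alone). Pkm rose by 1.51 ± 0.10 and Hk2 by 2.55 ± 0.18, while Aldoa (-1.19 ± 0.09), Pfkl (-1.41 ± 0.13) and the insulin-responsive glucose carrier Slc2a4 (-2.69 ± 0.21) were lower. Of 22 nuclear genes of respiration, 6 were higher and 4 lower (median 0.04; 0 higher and 19 lower with a median of -0.62 with library totals alone). Of 24 cell cycle genes 3 passed, Mcm6, Mcm3 and Tk1, all lower in bone (median 0.01). The calls on Mcm3 and Tk1 were each lost when 1 of several libraries was left out: 1 gene was called without any 1 of the bone libraries or without marrow replicate 1. Scaling by library totals alone called 18 lower, with a median of -0.65.

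The immediate early genes were marrow-high where they were most abundant. Of 19 early response and heat shock genes, 6 were higher in bone and 5 lower (median 0.26). Fos read 4812, 4986 and 3635 CPM in bone and 9152, 10970 and 8576 CPM in marrow (-1.11 ± 0.17, edgeR adjusted p = 8.49e-05), Jun 1159, 1368 and 918 CPM in bone and 3503, 3720 and 2088 CPM in marrow (-1.39 ± 0.19) and Egr1 3104, 3247 and 2626 CPM in bone and 4786, 5687 and 4209 CPM in marrow (-0.71 ± 0.12). Junb differed by -1.21. Klf4 and Ier3 ran the other way, by 1.87 and 1.06. Scaled by library totals alone, the list had 6 higher and 8 lower with a median of -0.40. The labels do not say how the tissues were taken apart.

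**Figure D2:**
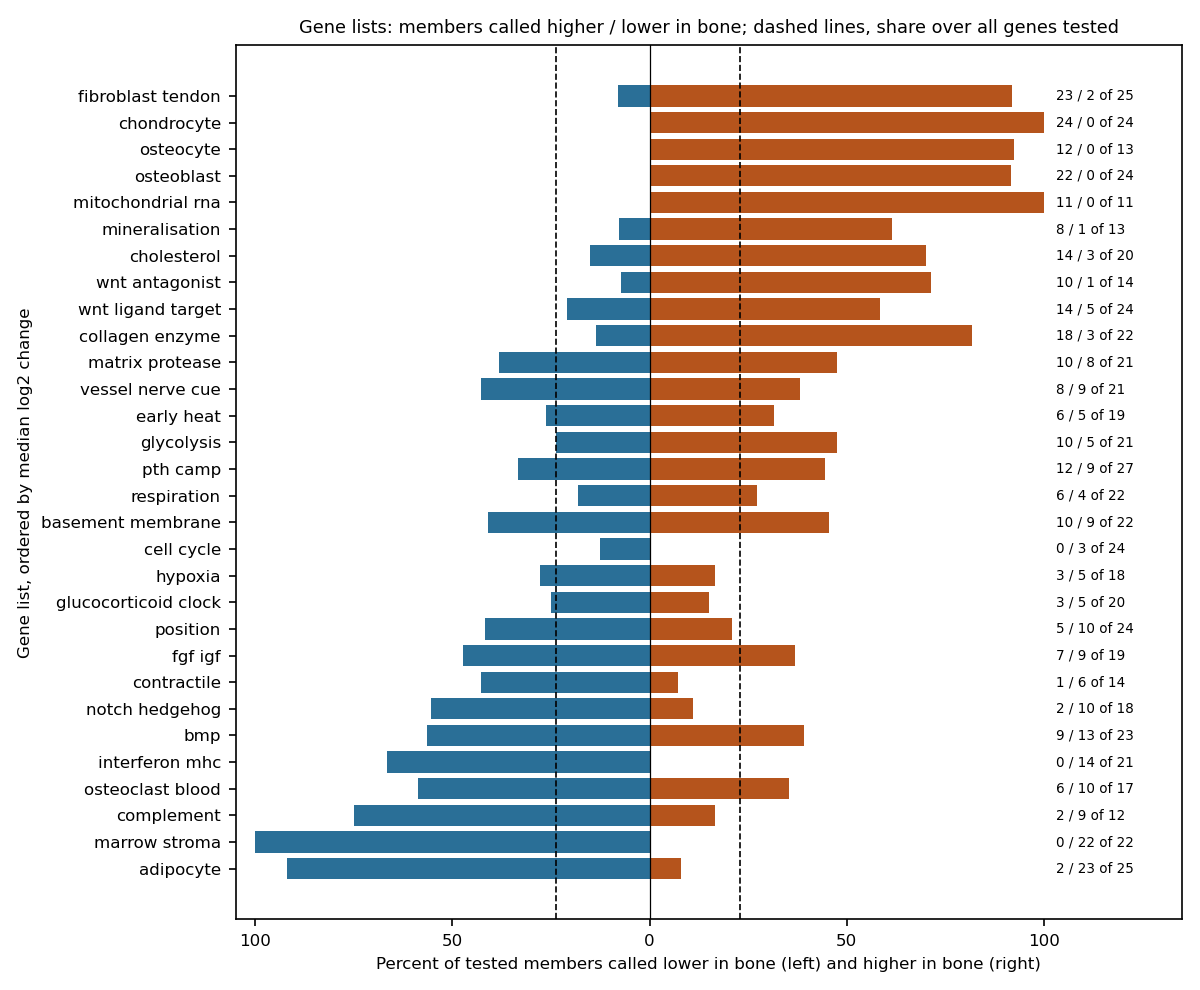
Percent of the tested members of each gene list called higher in bone (right) and lower in bone (left) by edgeR, with the counts at the right edge. Dashed lines mark the shares over all 15516 genes, 22.9% and 23.8%. Lists are ordered by median change, with fibroblast and tendon genes at the top and fat-cell genes at the bottom.

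Among the 15 largest rises with at least 5 CPM in bone, besides Cd34, were Ostn, Cilp2, Angptl7, Gpnmb, Ccn3, Cpxm2, Fbln2 and Igfbp6. Ostn, the osteocrin peptide that osteoblasts secrete, read 82.3, 78.4 and 65.8 CPM in bone and 0.773, 0.486 and 0.752 CPM in marrow (6.81 ± 0.26, edgeR adjusted p = 1.17e-10). Cilp2, a cartilage matrix protein, read 200.1, 204 and 146 CPM in bone and 1.45, 2.02 and 1.55 CPM in marrow (6.78 ± 0.32). Gpnmb, a membrane glycoprotein of osteoblasts, read 9.10, 9.84 and 10.5 CPM in bone and 0.0322, 0.112 and 0.0940 CPM in marrow (6.89 ± 0.43). Angptl7, a secreted angiopoietin-like protein, read 27.4, 53.9 and 21.7 CPM in bone and 0.225, 0.261 and 0.235 CPM in marrow (7.12 ± 0.85). Each of these 4 was at about 2 CPM or less in every marrow library. Ccn3 and Fbln2, matricellular proteins, rose by 6.696 and 6.55.

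Among the 15 largest falls were Lrrc4c, Cbln1, Col6a5, Gpd1, Tshr, Slc15a2, Pck1, Cfd and Tubb1. Lrrc4c, a netrin ligand, read 0.310, 0.361 and 0.646 CPM in bone and 17.04, 16.2 and 21.9 CPM in marrow (-5.401 ± 0.41, edgeR adjusted p = 1.03e-07). Cbln1, a secreted synaptic organiser, read 5.01, 3.71 and 4.78 CPM in bone and 119.6, 114 and 117 CPM in marrow (-4.71 ± 0.14), and the collagen VI chain Col6a5 3.20, 3.45 and 5.56 CPM in bone and 81.7, 102 and 129 CPM in marrow (-4.69 ± 0.21). Gpd1, which makes glycerol phosphate for fat, read 6.10, 2.47 and 3.30 CPM in bone and 140.5, 104 and 94.3 CPM in marrow (-4.86 ± 0.28). Tshr, the thyrotropin receptor, read 0.775, 0.0515 and 0.388 CPM in bone and 15.6, 13.4 and 12.6 CPM in marrow (-5.14 ± 0.70). Without bone replicate 1 the estimate of Tshr was -6.11 and without bone replicate 2 it was -4.50, both called. Slc15a2, a peptide carrier, differed by -4.796 ± 0.44.

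Tubb1, a tubulin of megakaryocytes and platelets, rests on 1 library. It read 0.103, 0.155 and 0.258 CPM in bone and 0.451, 53.9 and 0.329 CPM in marrow, and marrow replicate 2 alone was high. Without that library the estimate was -1.01 (edgeR, adjusted p = 0.523), without bone replicate 2 it was -2.13 (adjusted p = 0.365), and without bone replicate 1 it was -5.84 (adjusted p = 0.0501). With no filter on low counts it was -5.37 (adjusted p = 0.109). Without bone replicate 3, marrow replicate 1 or marrow replicate 3 it was -6.76, -6.89 and -6.26, each called. Marrow replicate 2 was also high for Cfd, the complement factor adipsin, which read 2.69, 5.46 and 1.81 CPM in bone and 50.05, 250.5 and 74.4 CPM in marrow (-5.07 ± 0.36), and for Pck1, an enzyme of glucose and glycerol synthesis, which read 0.103, 0.412 and 0.258 CPM in bone and 1.29, 28.01 and 4.70 CPM in marrow (-4.94 ± 0.76). Pck1 was at -3.54 without it and kept its call (adjusted p = 0.00873), and it was at -4.15 without bone replicate 2 and -5.62 without marrow replicate 1.

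Markers of other cell types were checked in the same libraries. Megakaryocyte genes summed to 325 CPM in marrow replicate 2 and to at most 7.05 CPM in any of the other 5 libraries. Ppbp, a platelet chemokine, read 0.580, 106 and 0.893 CPM in marrow, and the platelet integrin chain Itga2b 1.26, 81.3 and 1.503 CPM. Pan-leukocyte genes were low: without Kit their sum was 7.75 to 9.51 CPM in bone and 2.90 to 12.4 CPM in marrow. Kit, the receptor of stem cell factor, was marrow-high at 9.04, 13.4 and 16.1 CPM in bone and 288, 80.1 and 159.8 CPM in marrow (-3.66 ± 0.44, edgeR adjusted p = 3.54e-05). Without marrow replicate 1, the highest library, it was -3.04. In marrow replicates 1, 2 and 3 the leukocyte sums without Kit were 2.90, 12.4 and 3.40 CPM, highest where Kit was lowest. Blood progenitors and mast cells carry Kit, and which cells carried it here was not tested.

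Macrophage genes summed to 19.3 to 28.1 CPM in bone and 10.5 to 15.5 CPM in marrow, neutrophil genes to 8.25 to 61.8 CPM in bone and 5.005 to 17.9 CPM in marrow, red cell genes to 59.5 to 117 CPM in bone and 79.5 to 111 CPM in marrow and B cell genes to 5.31 to 9.51 CPM in bone and 0.773 to 1.87 CPM in marrow. T and NK cell genes stayed at 1.13 CPM or less, and Vsig4, Ocstamp, Pax5, Cd8a, Ncr1, Myh2, Myod1 and Pax7 had 0 counts in all 6 libraries. Endothelial genes summed to 8.73 to 27.1 CPM in bone and 7.21 to 13.4 CPM in marrow, skeletal muscle genes to 11.7 to 29.6 CPM in bone and 1.88 to 2.50 CPM in marrow and pericyte genes to 278 to 461 CPM in bone and 381 to 592 CPM in marrow. All 6 muscle genes tested were higher in bone, at low level. Of 10 pericyte genes tested, 3 were higher in bone and 3 lower. Notch3 was the largest part of the pericyte sum in marrow, at 299, 173 and 389 CPM. Cspg4 ran the other way, at 110.4, 110.2 and 181.6 CPM in bone and 16.2, 13.2 and 15.1 CPM in marrow. Osteoclast genes summed to 535 to 553 CPM in bone and 192 to 283 CPM in marrow, most of it Ctsk and Nfatc1. Of this list, Ctsk (0.95), Nfatc1 (3.14) and Acp5 (1.18) were higher in bone, while the fusion gene Ocstamp was at 0. Oscar, Dcstamp, Calcr, Atp6v0d2 and Tnfrsf11a read 0.83 CPM or less in every library and were not tested. Itgb3 did not pass, and marrow replicate 2 alone was high for it, at 75.9 CPM. Scaling by library totals alone turned the medians of the leukocyte (0.60 to -0.04), red cell (0.06 to -0.62) and pericyte (0.18 to -0.47) lists. All of these sums lie far below those of the skeletal lists above.

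**Figure D3:**
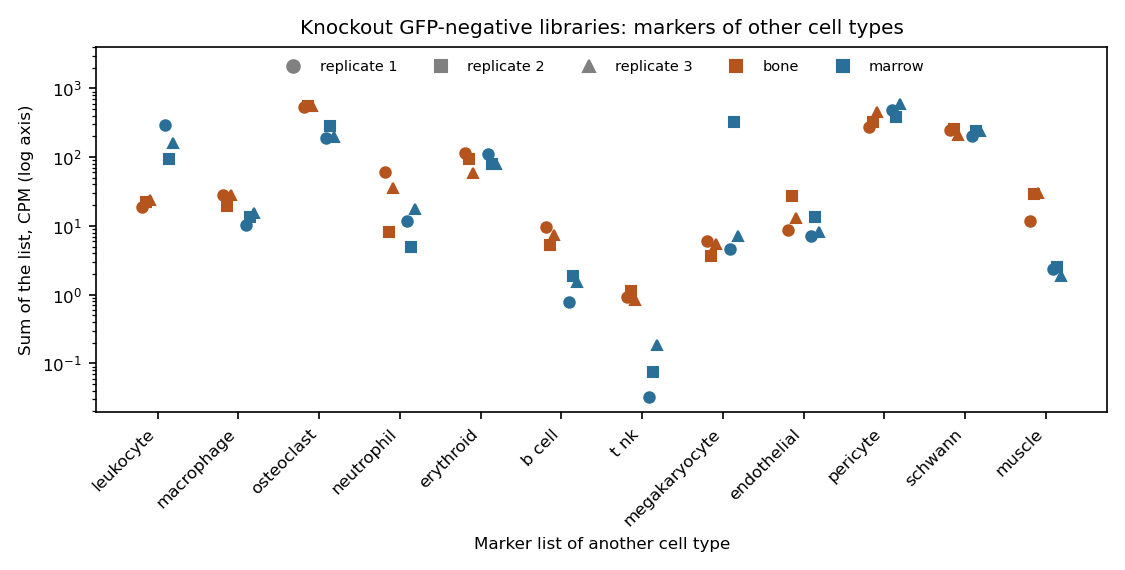
Summed CPM (log axis) of 12 marker lists of other cell types in the 6 libraries, with 1 symbol per replicate. Marrow replicate 2 stands alone for megakaryocyte genes, at 325 CPM against 3.61 to 7.05 CPM in the other libraries, and the leukocyte sum in marrow is mostly Kit.

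Genes of interferon response and antigen presentation were lower in bone, 14 of 21 with none higher (median -1.02). H2-D1, a class I molecule, read 779, 1456 and 1229 CPM in bone and 3316, 6710 and 3604 CPM in marrow (-1.95 ± 0.16, edgeR adjusted p = 2.24e-07). Its near-identical relatives may share reads. Psmb8 and Psmb9, chains of the immunoproteasome, differed by -1.91 and -1.74. Oasl2, an interferon target, read 3.82, 37.4 and 7.56 CPM in bone and 19.3, 99.5 and 23.4 CPM in marrow (-1.71 ± 0.23), and its call was lost without the replicate block (-1.53, adjusted p = 0.138). Marrow replicate 2 was the highest library for these 4 genes, and without it 9 members were lower. Without the replicate block 8 were lower.

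The same contrast in controls called 6179 genes (39.8%), 3363 higher in bone (21.7%) and 2816 lower (18.1%), with a median over all genes of 0.03. The change differed between genotypes, by the interaction term of the same edgeR fit, for 1478 genes (9.53%), 811 with a higher value in the knockout (5.23%) and 667 with a lower one (4.30%). The share of higher differences depends on scaling: it was 54.9% with TMM, 68.6% with DESeq2 size factors and 11.2% with library totals alone, where 4040 genes were called. Without the replicate block 1175 differences were called, and without control bone replicate 3 998. In controls, libraries with the same number deviated together less than in the knockout, with correlations of 0.055 to 0.092.

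For the bone matrix the knockout contrast exceeded that of the controls. For 18 of 24 osteoblast genes the difference between genotypes was called, each time higher in the knockout, and the list's median was 2.21 in the knockout and 0.74 in controls. Bglap rose by 3.54 in the knockout and 1.12 in controls, a difference of 2.42 ± 0.24 (edgeR interaction, adjusted p = 4.66e-05). Control marrow held 2127, 4421 and 2548 CPM of Bglap, several times the knockout marrow level, while the bone libraries of both genotypes overlapped (5235, 7870 and 6081 CPM in controls). Spp1 changed by -0.13 in controls, and the difference was 2.18 ± 0.26 (adjusted p = 0.000151). For Col1a1 the difference was 1.91 ± 0.31 (adjusted p = 0.00157), which did not pass with DESeq2 (1.99, adjusted p = 0.175). With library totals alone the list's difference was called for 15 members, again all higher. Mitochondrial transcripts moved with it: the difference was higher in the knockout for 7 of 11 and lower for none, 2 with library totals alone, and medians were 1.48 in the knockout and 0.88 in controls. Without single libraries the count was 4 to 9. Their part in the osteoblast difference was not tested. Upward differences were also called for 11 of 25 fibroblast and tendon genes and 9 of 21 proteases, each with 1 downward, and for 6 of 12 complement genes with none downward, where 5.23% of all genes were called upward.

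Cartilage genes went the other way. The difference was called lower in the knockout for 15 of 24 and higher for 3, with medians of 3.56 in the knockout and 4.403 in controls. Matn3, a matrilin, rose by 3.56 in the knockout and 4.87 in controls, a difference of -1.301 ± 0.17 (edgeR interaction, adjusted p = 0.000341). Scaling by library totals alone called 19 lower and 2 higher. Fibroblast and tendon genes differed upward for 11 of 25 and downward for 1. The upward count was 7 without knockout bone replicate 1 or 2 or control bone replicate 2, and 6 without control marrow replicate 2. For marrow stroma, 9 of 22 had a smaller fall in the knockout, and 2 a larger one. Cxcl12 (0.87, adjusted p = 0.0413) and Lepr (0.67, adjusted p = 0.0387) were among the smaller falls, but both calls were lost with library totals alone (adjusted p = 0.181 and 0.297), with the length trend removed (0.0757 and 0.0747) and without most single libraries. Scaling by library totals alone gave 1 smaller and 4 larger falls, and the number of smaller falls was 3 to 8 when 1 library was left out, so the direction of this list depended on scaling. For fat-cell genes the difference was called for 6 of 25, all with lower values in the knockout, among them Acsl1 at -2.77 ± 0.29 (adjusted p = 6.98e-05) and Plin2 at -1.06 ± 0.12 (adjusted p = 9.34e-05).

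**Figure D4:**
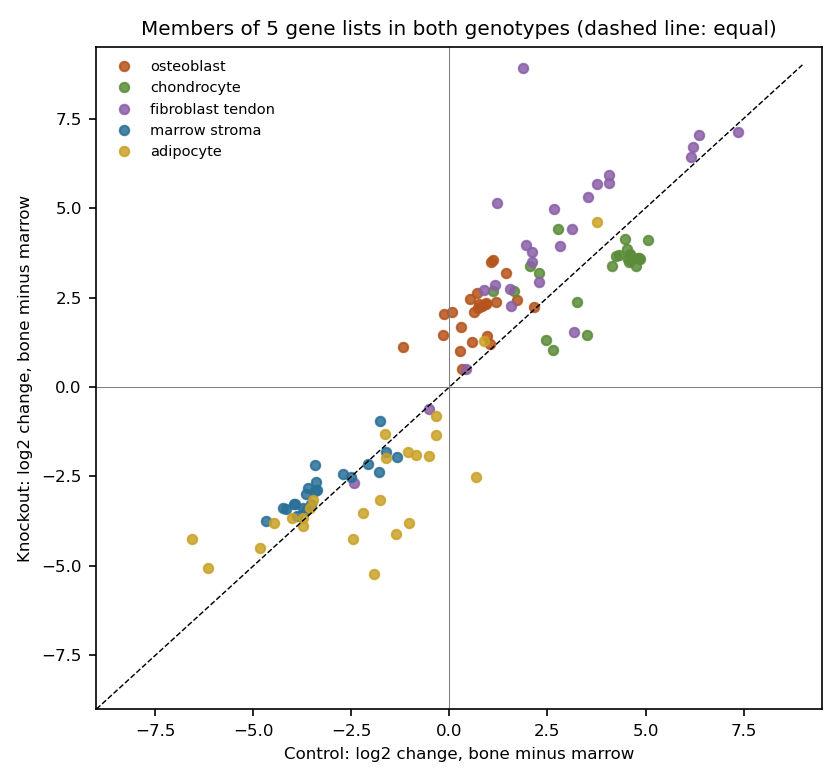
Log2 change of bone minus marrow in controls (horizontal) and in the knockout (vertical) for the tested members of 5 gene lists, with 1 point per gene and the dashed line at equal change. Osteoblast genes lie above the line, most cartilage genes below it, and marrow stroma genes on both sides of it.

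Glycolysis and hypoxia genes also differed between genotypes. By the same test, of 21 glycolysis genes the difference was lower in the knockout for 10 and higher for 1, and of 18 hypoxia genes it was lower for 5 and higher for none. Bnip3, a mitophagy receptor that hypoxia induces, had the smallest p among genes that the naming rule allows. It read 36.4, 30.7 and 29.3 CPM in bone and 32.4, 43.5 and 33.4 CPM in marrow in the knockout and did not pass there (-0.18 ± 0.13, adjusted p = 0.261), but was lower in bone with library totals alone (-0.84, adjusted p = 3.42e-05). Controls read 129.8, 101 and 124 CPM in bone and 29.4, 26.99 and 23.2 CPM in marrow, and the difference was -2.34 ± 0.18 (edgeR interaction, adjusted p = 2.03e-05). The control bone libraries alone were high. Aldoa differed by -1.45 ± 0.12 and Adm, adrenomedullin, by -2.54 ± 0.26. Early response genes differed downward for 8 of 19, among them Junb at -1.38 ± 0.24, and for 4 without the replicate block. The count was 5 without knockout bone replicate 1 or 2 or control bone replicate 1.

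The other 7 genes with the smallest p were Tbx2, Fxyd6, Gprc5c, Nbl1, Slc43a3, Smoc2 and Ptgis, all with an adjusted p of 2.03e-05. Tbx2, a T-box factor, read 266, 239.6 and 195 CPM in bone and 66.2, 61.5 and 39.04 CPM in marrow in the knockout and 114, 128 and 129 CPM in bone and 80.8, 128 and 128 CPM in marrow of controls, a difference of 1.92 ± 0.15. Nbl1, a secreted BMP antagonist, read 439, 372 and 352 CPM in bone and 40.4, 37.5 and 26.03 CPM in marrow in the knockout and 179, 228 and 189.9 CPM in bone and 59.9, 106 and 90.9 CPM in marrow of controls, a difference of 2.26 ± 0.18. Both genes had their lowest libraries in knockout marrow and their highest in knockout bone. Fxyd6 differed by 2.55 ± 0.20, Gprc5c by 1.903 ± 0.15, Smoc2, a matricellular protein, by 1.497 ± 0.12, and Ptgis, prostacyclin synthase, by 1.596 ± 0.13. Slc43a3 was the member in the other direction, at -1.61 ± 0.13, with knockout bone at 26.1, 27.01 and 23.6 CPM below all other groups.

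**Figure D5:**
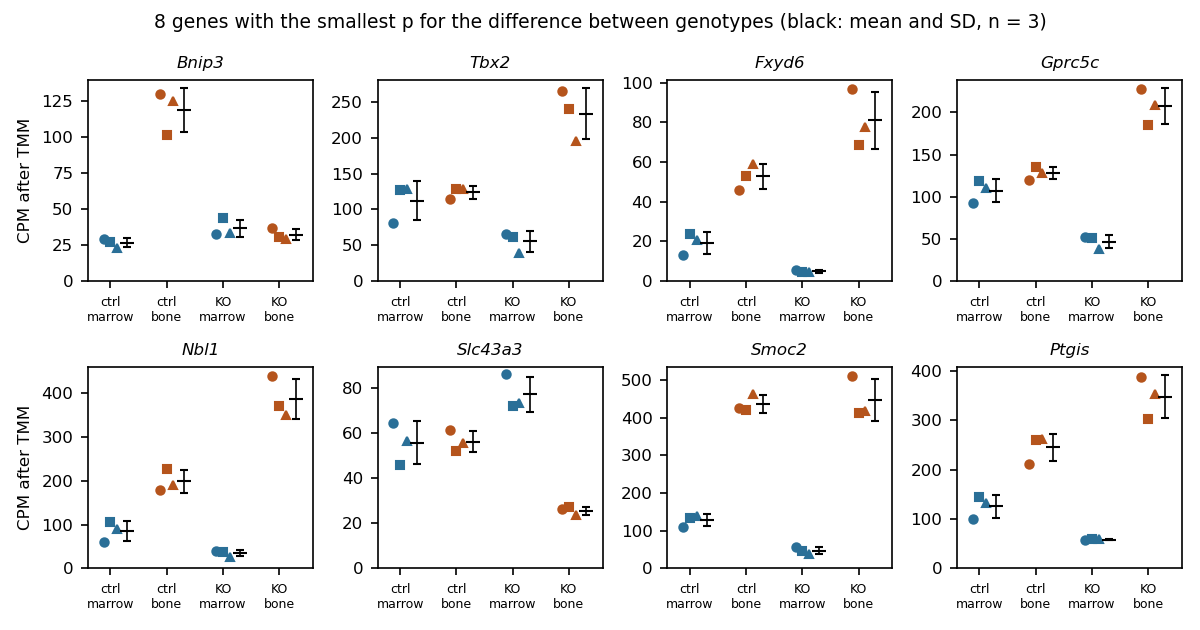
CPM after TMM scaling of the 8 genes with the smallest p for the difference between genotypes, in control and knockout marrow (blue) and bone (orange), with 1 symbol per library and the mean and SD (n = 3) in black. Axes start at 0. For Bnip3 control bone is high, for Slc43a3 knockout bone is low, and for the other 6 genes knockout marrow is lowest.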

How the data were processed

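RNA sequencing of sorted mouse cells was read from 18 deposited tables, 1 per library, each with raw read counts per gene that the authors made and the summed exon length of each gene, per the file headers. The submitters' processing notes name STAR, featureCounts, DESeq2 and the build mm10. Versions, strand setting and the handling of reads that match several genes are not given in the sources used here, and the kits named in the labels' protocols are SMART-Seq v4 and ThruPLEX. Of 54446 gene IDs, 54409 had a symbol in GENCODE vM21.

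Groups came from the titles and labels. Counts were fitted with edgeR 4.0.16 in R 4.3.3: TMM scaling, genes with at least 10 counts in enough libraries (15 in total), 6 group means and a replicate block within each genotype over all 18 libraries (8 residual degrees of freedom), quasi-likelihood F tests and Benjamini-Hochberg adjustment at 0.05 over 15516 genes. CPM uses the TMM-scaled total. Standard errors are the estimate over the root of F. Replicate numbers were taken as pairs of bone and marrow. In the knockout, deviations of same-numbered libraries from their group means correlated at 0.126, 0.177 and 0.172, and those of other pairs at -0.141 to -0.029. Deviations within a group cancel, so the negative values follow in part from the positive ones. Replicate 3 was also the library with Xist in both tissues. Whether same-numbered libraries share animals was not tested. No pair of replicates agreed within sampling noise. Depth was 16443595 to 27160257 counts over the 18 libraries, so 3 counts are 0.0966 to 0.194 CPM in the 6 compared.

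The comparison and the gene lists were chosen with earlier results of these data known. Genes named are Pth1r, genes among the 15 largest rises and falls (at least 5 CPM, no overlap), the 10 most abundant called genes in each direction, the members of each list with the lowest p-values (6 at most), the 8 differences between genotypes with the smallest p, and some list members picked after their values were seen. The fits were tested on simulated counts in which few genes changed, in equal numbers up and down. That test does not cover changes as wide, or RNA composition as unequal, as in these libraries. Alternatives were DESeq2 1.42.0, other scalings, filters, blocks and sets of libraries, removal of a trend on gene length, and leaving out single libraries. The GFP-positive libraries entered the fit for its estimate of spread and were not compared here. The values of 1 list member are not reported here.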

Additional observations from a re-analysis of the deposited data

Results flagged for a closer look

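The change from marrow to bone differed between knockout and control, by the interaction term of the edgeR fit at an adjusted p of 0.05, for 1478 genes. These 1478 genes were 9.53% of those tested, 5.23% higher in the knockout and 4.30% lower. Of 192 genes named with values here, 98 were among the 1478, 70 higher in the knockout and 28 lower. The naming rule took 8 of them by the smallest p of this same test, so their share is not that of an independent set. With library totals alone, 11.2% of all differences called were higher in the knockout. The values below are log2 differences, knockout minus control.

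Of the osteoblast genes, Alpl (1.18), Bglap (2.42), Bglap2 (2.43), Col1a1 (1.91), Col1a2 (1.93), Dlx3 (1.48), Ibsp (1.602), Msx2 (2.303), Runx2 (0.73), Smpd3 (0.71), Sp7 (0.68), Sparc (1.42) and Spp1 (2.18) differed upward. The change was higher in the knockout for the mineralisation genes Ank (1.08), Enpp6 (1.66), Slc13a5 (1.44) and Slc20a2 (0.89). Upward differences among osteocyte genes were those of Ackr3 (1.18), Cd44 (1.17), Dkk1 (1.22), Dmp1 (1.90), Pdpn (1.51), Ptprz1 (1.56) and Tnc (1.05). Of the osteocyte genes, Fbln7 (-0.46) differed downward. The change was lower in the knockout for the cartilage genes Col9a1 (-0.91), Col9a2 (-0.99), Col9a3 (-1.06), Comp (-0.68), Epyc (-1.38), Ihh (-1.19), Matn3 (-1.301) and Sox9 (-0.87). Upward differences among fibroblast and tendon genes were those of Cd34 (7.06), Col12a1 (0.65), Col3a1 (1.11), Lum (1.68), Postn (1.64) and Timp1 (1.82). Of the collagen enzyme genes, Fkbp10 (0.54), P4ha3 (1.297) and Plod2 (0.84) differed upward. The change was higher in the knockout for the protease genes Mmp16 (1.79), Mmp2 (1.99), Timp2 (0.70) and Timp4 (1.86). Upward differences among marrow stroma genes were those of Cxcl12 (0.87), Esm1 (0.92), Igfbp5 (1.23), Kitl (0.70) and Lepr (0.67). Of the marrow stroma genes, Foxc1 (-0.58) differed downward. The change was higher in the knockout for the osteoclast and blood cue gene Tnfrsf11b (1.03). Downward differences among fat-cell genes were those of Acsl1 (-2.77) and Plin2 (-1.06). On the complement list, Serping1 (0.70) and C1qtnf1 (1.19), which has a C1q-like domain, differed upward. The change was higher in the knockout for the PTH and cyclic AMP genes Nr4a2 (1.51) and Pthlh (4.21). A downward difference among PTH and cyclic AMP genes was that of Dusp1 (-1.24). Of the WNT antagonist genes, Frzb (0.87), Notum (1.67), Sfrp1 (0.74) and Wif1 (1.16) differed upward. The change was higher in the knockout for the WNT ligand and target gene Tcf7 (1.09). Downward differences among WNT ligand and target genes were those of Rspo3 (-0.87) and Wnt4 (-1.08). Of the BMP genes, Bmp8a (1.17) and Grem1 (1.397) differed upward. The change was lower in the knockout for the BMP gene Chrdl1 (-0.85). Upward differences among FGF and IGF genes were those of Fgfr1 (0.67) and Igfbp6 (2.88). Of the vessel and nerve cue genes, Sema3d (1.63) differed upward. The change was lower in the knockout for the position gene Hoxa9 (-0.81). An upward difference among cholesterol genes was that of Sqle (0.82). Of the cholesterol genes, Nr1h3 (-1.13) differed downward. The change was lower in the knockout for the glycolysis genes Aldoa (-1.45), Pfkl (-1.63) and Slc2a4 (-1.18). Downward differences among hypoxia genes were those of Adm (-2.54) and Bnip3 (-2.34). Of the early response genes, Egr1 (-0.70), Fos (-0.92), Jun (-1.33) and Junb (-1.38) differed downward. Among the other genes, the change was higher in the knockout for Cbln1 (1.098), Cpxm2 (3.13), Ctsk (0.49), Fbln2 (4.26), Fxyd6 (2.55), Gpnmb (2.38), Gprc5c (1.903), Nbl1 (2.26), Nfatc1 (0.69), Ptgis (1.596), Smoc2 (1.497) and Tbx2 (1.92). Among the other genes, the change was lower in the knockout for Slc43a3 (-1.61). The values of Cd34 and Pthlh rest on few counts in knockout marrow. Most of the genes named were chosen for their change in the knockout, which is one side of this difference. Of these 98 calls, 54 were kept under every alternative run. At least 1 fit without a single library lost the call for 30 genes: Ackr3, Cd34, Cd44, Col12a1, Col3a1, Comp, Ctsk, Cxcl12, Dkk1, Egr1, Fbln7, Fos, Foxc1, Frzb, Gpnmb, Hoxa9, Igfbp6, Kitl, Lepr, Msx2, Nr1h3, Ptprz1, Rspo3, Serping1, Sfrp1, Slc2a4, Smpd3, Sp7, Timp4 and Tnfrsf11b. Of the rest, Esm1, Fgfr1, Fkbp10, Nfatc1, Runx2, Slc20a2, Sqle and Timp2 lost it with library totals alone, Col1a1 and Col1a2 with DESeq2, Ibsp and Ihh with no filter, Tnc with library totals alone or no filter, and Jun with no filter or no replicate block.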

How the results depend on the processing

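The number of genes called stayed within 1.5 times of 7259 under every alternative run, from 6034 without bone replicate 2 to 10583 with library totals alone. With library totals alone, 6024 genes passed with at least 2-fold change, 21.2% of them higher in bone against 55.6%, and 4040 differed between genotypes. Leaving out 1 library gave 6034 to 6155 genes called, 3344 to 3447 with at least 2-fold change and 998 to 1397 that differed between genotypes. Without the replicate block these numbers were 6946, 3732 and 1175. Higher values in the knockout made up 68.6% of the differences with DESeq2 size factors, 67.2% with DESeq2, 63.5% with the stricter filter, 61.1% with none, and 74.0% with only the libraries compared, with or without the block. With only the 6 libraries and no block, 4 interferon genes were lower. Estimates of 4 genes reversed when 1 library was left out, with a range of -0.34 to 0.009 for Bnip3, -3.60 to 0.51 for Itga2b, -0.36 to 0.10 for Nr4a1 and -5.28 to 0.12 for Ppbp, the highest each time without marrow replicate 2. So did the Pth1r difference between genotypes with library totals alone (-0.25). None of these passed the test in the main fit, with TMM and the replicate block, or where it was reversed. Itga2b and Ppbp passed without the block (-3.89 and -5.64, edgeR adjusted p = 0.0137 and 0.0114). Both also passed without marrow replicate 1 (-3.60 and -5.03), and Ppbp without marrow replicate 3 (-5.28). Bnip3 passed with library totals alone (-0.84, edgeR adjusted p = 3.42e-05). Msx2 passed without marrow replicate 2 (1.47) and Phospho1 without marrow replicate 1 (1.60). The cause was not tested.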

Other observations

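Cues for vessels and nerves were shared out between the tissues. Of 21 tested, 8 were higher in bone and 9 lower, with a median of 0.30 (-0.36 with library totals alone). The vessel growth factors Vegfc and Angpt2 were marrow-high. Vegfc, a lymphatic growth factor, read 37.1, 39.8 and 29.98 CPM in bone and 324, 323 and 377 CPM in marrow (-3.27 ± 0.24, edgeR adjusted p = 1.08e-07), and Angpt2, a ligand of the TIE2 receptor, 40.8, 41.8 and 39.9 CPM in bone and 141, 176 and 164 CPM in marrow (-1.97 ± 0.13). The semaphorins Sema3d and Sema3c, guidance cues, were bone-high. Sema3d read 126, 103 and 138 CPM in bone and 21.6, 22.7 and 15.97 CPM in marrow (2.61 ± 0.16) and Sema3c 49.6, 22.9 and 23.4 CPM in bone and 1.42, 1.23 and 1.13 CPM in marrow (4.62 ± 0.32). Thbs2, an antiangiogenic matrix protein, read 2543, 2112 and 1483 CPM in bone and 299.5, 362 and 346 CPM in marrow (2.61 ± 0.20).

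Factors that mark position along the limb and body differed in a few members. Of 24 tested, 5 were higher in bone and 10 lower (median -0.23; 3 higher and 17 lower with a median of -0.89 with library totals alone), and 5 were lower without bone replicate 2 and 6 without marrow replicate 3. Hoxa9 read 6.41, 5.72 and 6.53 CPM in bone and 27.5, 33.4 and 33.7 CPM in marrow (-2.34 ± 0.17, edgeR adjusted p = 6.14e-08) and Hoxa10 32.8, 29.2 and 34.4 CPM in bone and 70.5, 77.9 and 101 CPM in marrow (-1.36 ± 0.14). Tbx4, a factor of the hindlimb, read 15.7, 21.1 and 13.05 CPM in bone and 2.38, 1.08 and 1.36 CPM in marrow (3.36 ± 0.31), and Prrx2 28.7, 29.99 and 23.97 CPM in bone and 2.64, 1.23 and 1.83 CPM in marrow (3.88 ± 0.25). Outside these position factors, Epas1, the hypoxia-inducible factor subunit of vessels and stroma, read 67.03, 91.6 and 69.5 CPM in bone and 442, 578 and 507 CPM in marrow (-2.75 ± 0.12). Of 18 hypoxia genes tested, 3 were higher in bone and 5 lower (median -0.18, or -0.80 with library totals alone), where 22.9% and 23.8% of all genes were. Hoxa9 was thus higher in every marrow library, Tbx4 and Prrx2 in every bone library.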
